A study of Caenorhabditis elegans with 6 samples.

Results

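The antioxidant defence described here comprises 10 genes: skn-1, gcs-1, sod-2, sod-4, sod-5, ctl-1, ctl-2, ctl-3, prdx-2 and prdx-3. They were chosen by name, as a gene symbol standing alone on a probe set of the array. On this rule 8 genes were measured, by 11 of the 22548 probe sets tested. The catalase genes ctl-1 and ctl-3 had no probe set of their own and carry no value here. The array compared 3 samples of wild-type N2 worms with 3 samples of worms carrying the loss-of-function allele tdp-1(ok803). The growth protocol calls the mutants outcrossed, whereas the sample descriptions carry RB929, the code of the original strain, so background mutations cannot be told apart from the allele. Both were mixed-stage whole worms grown under standard conditions, with no treatment given in the labels, and the mutant group rests on 1 allele. Worm TDP-1 is the counterpart of human TDP-43, a protein that binds RNA, and the comparison asks how transcript levels differ when it is lost.

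Reactive oxygen species arise as by-products of respiration and from dedicated oxidases, and cells remove them in steps. Superoxide dismutases turn superoxide into hydrogen peroxide, and catalases and peroxiredoxins break the peroxide down, peroxiredoxins with the help of thioredoxin. Glutathione buffers the cell against oxidants, and the enzyme encoded by gcs-1 catalyses the rate-limiting step of its synthesis. In worms the transcription factor SKN-1, the counterpart of mammalian Nrf proteins, drives gcs-1 and other detoxification genes in the intestine under oxidative stress and specifies endoderm and mesoderm fate in the early embryo.

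All values are log2 signals per probe set, and a difference is the mutant mean minus the wild-type mean. The moderated linear model of limma was fitted over all probe sets, with p-values adjusted over all of them by the Benjamini-Hochberg method and a threshold of 0.05. The mutated gene checked the labels. The brighter tdp-1 probe set read 8.86, 9.22 and 8.85 in wild type and 4.77, 4.78 and 5.47 in the mutant, a difference of -3.97 (limma adjusted p = 0.000815). Arrays of both genotypes also fell on either side of a technical measure. Actin and Gapdh control probe sets at the 3' end exceeded those at the 5' end, a gap that grows when RNA is broken or labelling stops short. The gap was 2.52 to 3.09 on replicates 1 and 3 of the wild type and replicate 2 of the mutant. It was 4.01 to 4.31 on the other 3 arrays, and the sets are called the arrays with the smaller and the larger 3' minus 5' difference below. Markers of several tissues were present: 7 of 7 intestinal, 4 of 4 muscle, 4 of 4 hypodermal and cuticle, 5 of 5 germline and 4 of 6 neuronal genes lay above the array median on every array. Of 4 sperm genes 1 did, and spe-9, spe-11 and fer-1 did not.

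No antioxidant gene passed the test. Of the 11 probe sets 0 had a limma adjusted p under 0.05, where 13 of all 22548 did, or 0.0577%. At an unadjusted p under 0.05 there were 2, both for skn-1, against 6.97% of all probe sets. With 1 probe set per gene, the one with the highest mean, 3 genes were higher and 5 lower in the mutant, and the median difference was -0.07 against 0.002 over all probe sets. The differences ran from -0.33 for prdx-2 to 0.47 for skn-1. Since the worms were harvested whole, fewer cells of a type and less RNA per cell cannot be told apart.

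**Figure D1:**
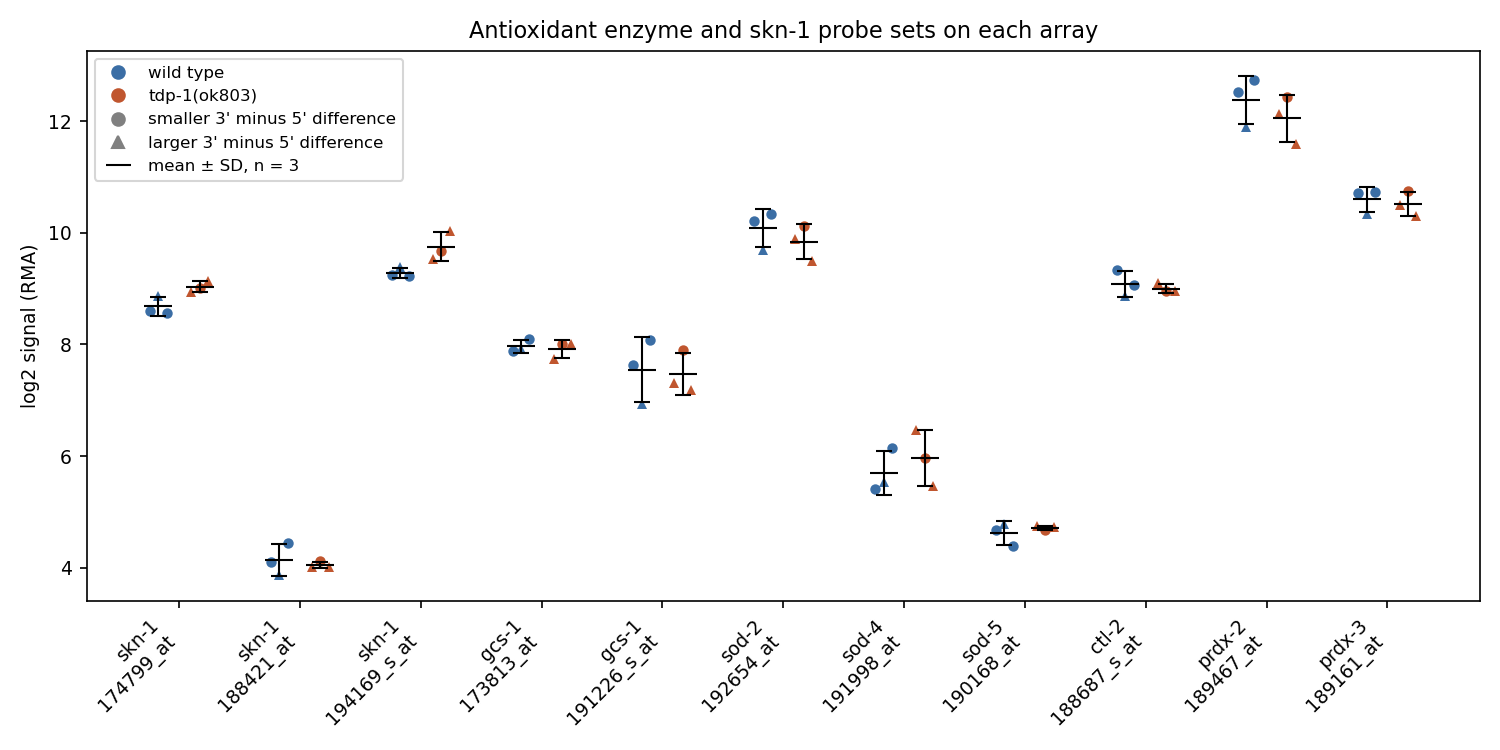
Log2 signal (vertical axis) of the 11 probe sets of the antioxidant genes (horizontal axis) on each array, blue for wild type and orange for tdp-1(ok803), with the mean and SD of 3 arrays in black. Circles are arrays with the smaller 3' minus 5' difference and triangles those with the larger one. The mutant points of 2 skn-1 probe sets lie above all wild-type points, and the genotypes overlap in the other 9 probe sets.

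The regulator skn-1 (T19E7.2, chromosome IV) gave the clearest separation of the genotypes. Its brightest probe set, 194169_s_at, read 9.25, 9.38 and 9.22 in wild type and 9.53, 9.68 and 10.04 in the mutant. Every mutant array lay above every wild-type array, by 0.15 at the closest, and the highest value came from mutant replicate 3. The difference was 0.47 ± 0.15 (SE), or 1.38-fold with a 95% interval from 1.08 to 1.77 (limma adjusted p = 0.558). A second probe set, 174799_at, read 8.60, 8.87 and 8.57 in wild type and 8.94, 9.02 and 9.14 in the mutant. The groups were again apart, by 0.07, and the difference was 0.35 ± 0.13 (SE), or 1.28-fold with an interval from 1.04 to 1.57 (limma adjusted p = 0.621). For both, exact permutation of the 6 values gave a two-sided p of 0.1, the smallest that 3 arrays against 3 allow. Groups with the mutant wholly above occurred in 6.8% of all probe sets and groups apart in either direction in 11.6%, against 2 of 11 here. These 2 probe sets measure the same gene on the same RNA and are not separate evidence.

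The third skn-1 probe set, 188421_at, did not show this separation. It read 4.10, 3.87 and 4.44 in wild type and 4.01, 4.11 and 4.01 in the mutant, below the array median on all 6 arrays. The groups overlapped and the difference was -0.09, with a 95% interval from -0.46 to 0.28. The mean of all 3 probe sets gave a difference of 0.24 for the gene (limma adjusted p = 0.766). RefSeq lists 4 proteins for skn-1, and which transcripts each probe set reports was not analysed here. The suffix of 194169_s_at, also carried by 191226_s_at of gcs-1, marks probes shared by several transcripts.

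The differences of 194169_s_at and 174799_at of skn-1 had the same direction on both sides of the 3' minus 5' axis. Each side holds only 1 array of one genotype. For 188421_at the difference was -0.16 within the arrays with the smaller 3' minus 5' difference and 0.14 within the others. For 194169_s_at the difference was 0.44 within the arrays with the smaller 3' minus 5' difference and 0.41 within those with the larger one. With that difference as a covariate it was 0.38, with a 95% interval from 0.03 to 0.73 (limma adjusted p = 0.432). For 174799_at the corresponding values were 0.43, 0.17 and 0.25, with an interval from -0.02 to 0.52 for the last. When single arrays were left out, the difference of 194169_s_at ran from 0.32, without mutant replicate 3, to 0.58, without mutant replicate 1. Intestinal marker genes, from a tissue where SKN-1 acts, had mean levels of 10.26 to 10.65 in wild type and 10.33 to 10.69 in the mutant. Germline markers lay at 10.45 to 10.72 and 10.21 to 10.72, so both sets overlapped between genotypes. Muscle markers lay at 8.99 to 9.71 and 8.90 to 9.0, and neuronal markers at 7.28 to 7.39 and 7.10 to 7.23. The neuronal list was apart, lower in the mutant, and its part in the skn-1 values was not tested.

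**Figure D2:**
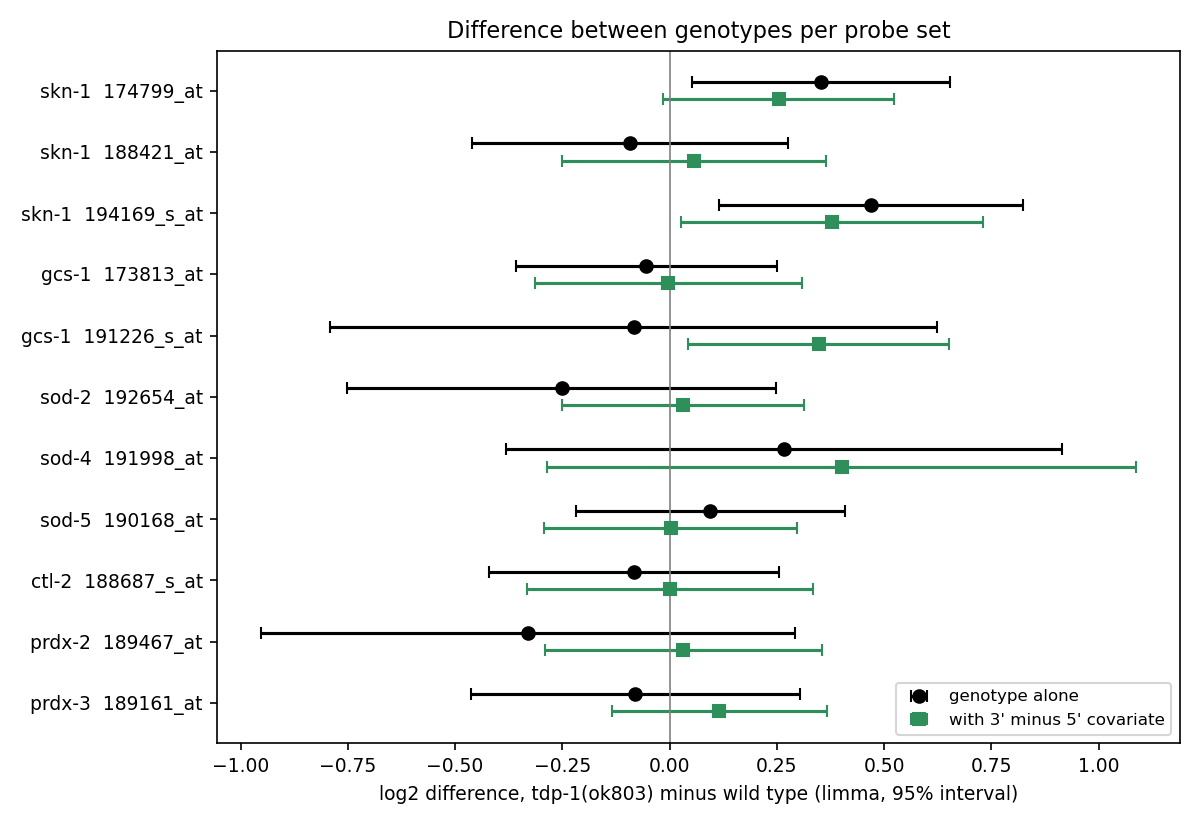
Log2 difference, tdp-1(ok803) minus wild type (horizontal axis), with 95% intervals from limma for the 11 probe sets (vertical axis), fitted with genotype alone (black) and with the 3' minus 5' control difference as a covariate (green). With genotype alone, the intervals of 194169_s_at and 174799_at of skn-1 lie above 0 before adjustment for multiple tests, and the other 9 include 0.

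The gene gcs-1 (F37B12.2, chromosome II), the standard reporter of SKN-1 activity, showed no matching difference. Its brighter probe set, 173813_at, read 7.89, 7.91 and 8.10 in wild type and 7.73, 8.01 and 8.0 in the mutant. The ranges overlapped in part, and the difference was -0.05 ± 0.13 (SE), with a 95% interval from 0.78-fold to 1.19-fold (limma adjusted p = 0.963). That interval is unadjusted, rests on 3 arrays per genotype and is not a limit of detection.

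The other gcs-1 probe set, 191226_s_at, varied far more between arrays. It read 7.64, 6.93 and 8.08 in wild type and 7.31, 7.90 and 7.19 in the mutant, a range of 1.16 over the 6 arrays against 0.37 for 173813_at. Its values were 7.64 to 8.08 on the arrays with the smaller 3' minus 5' difference and 6.93 to 7.31 on those with the larger one. The genotype difference was -0.08 with genotype alone, with a 95% interval from -0.79 to 0.62. It turned to 0.35 with the 3' minus 5' covariate, with an interval from 0.04 to 0.65 (limma adjusted p = 0.407). Within the smaller-difference arrays it was 0.04 and within the larger-difference arrays 0.32. The 2 probe sets of gcs-1 thus gave different values for the same gene once that axis was taken into account, and neither passed. The gene lies near tdp-1 on chromosome II, with 5 protein-coding genes between them in the WBcel235 gene table. Their differences ran from -0.10 for F44G4.5 to 0.07 for F44G4.7, with overlapping groups in all 5.

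Among superoxide dismutases, sod-2 (F10D11.1, chromosome I) encodes a mitochondrial manganese enzyme. It read 10.22, 9.70 and 10.34 in wild type and 9.89, 10.12 and 9.50 in the mutant. The low values were wild-type replicate 2 and mutant replicates 1 and 3, the arrays with the larger 3' minus 5' difference. The genotypes overlapped and the difference was -0.25 ± 0.22 (SE; limma adjusted p = 0.881). It ran from -0.44, without wild-type replicate 2, to -0.08, without mutant replicate 3, when single arrays were left out. With the 3' minus 5' covariate it was 0.03, with a 95% interval from -0.25 to 0.31.

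The gene sod-4 (F55H2.1, chromosome III) encodes the extracellular copper-zinc enzyme. It read 5.41, 5.54 and 6.15 in wild type and 6.46, 5.97 and 5.47 in the mutant. The ranges overlapped, with the highest and the lowest array in different genotypes, and the difference of 0.27 ± 0.28 (SE) did not pass (limma adjusted p = 0.905). Its 95% interval, from 0.77-fold to 1.88-fold, was the widest on the upper side among the 8 genes. The difference ran from 0.02 to 0.51 when single arrays were left out, the lowest without mutant replicate 1.

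The gene sod-5 (ZK430.3, chromosome II) encodes an intracellular copper-zinc enzyme known to be expressed in neurons and raised in the dauer larva. It read 4.68, 4.79 and 4.38 in wild type and 4.74, 4.68 and 4.72 in the mutant, below the array median on every array. The difference was 0.10 ± 0.14 (SE; limma adjusted p = 0.932). Signal over background was not measured for this probe set, and the size of any change in sod-5 cannot be judged.

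The catalase gene ctl-2 (Y54G11A.5, chromosome II) encodes the peroxisomal catalase. It lies next to ctl-1, with ctl-3 following directly, and the 3 genes form a cluster of similar sequence. Its probe set, 188687_s_at, carries the suffix that marks probes shared by several transcripts, and signal from the neighbouring copies cannot be told apart from its own. It read 9.33, 8.86 and 9.06 in wild type and 9.10, 8.95 and 8.95 in the mutant. The mutant values sat inside the wild-type range, and the difference was -0.08 ± 0.15 (SE), with a 95% interval from 0.75-fold to 1.19-fold (limma adjusted p = 0.949). It was 0.04 without wild-type replicate 1 and -0.19 without wild-type replicate 2. The array also carries control probe sets labelled catalase, which name no gene here and are outside the 11. The 3' one read 7.57, 7.98 and 7.65 in wild type and 7.98, 7.56 and 8.13 in the mutant, higher on every array with the larger 3' minus 5' difference. The matching 5' probe set stayed at 3.84 to 4.01 on all arrays.

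The peroxiredoxin gene prdx-2 (F09E5.15, chromosome II) encodes a cytosolic peroxiredoxin. It read 12.52, 11.90 and 12.73 in wild type and 12.13, 12.43 and 11.60 in the mutant. The lowest values of each genotype came from arrays with the larger 3' minus 5' difference. At -0.33 ± 0.27 (SE) it had the lowest difference of the 8 genes, with a 95% interval from 0.52-fold to 1.22-fold (limma adjusted p = 0.876). Leaving out single arrays moved it between -0.57 (wild-type replicate 2 omitted) and -0.10 (mutant replicate 3 omitted). With the covariate it was 0.03, with an interval from -0.29 to 0.36. Within the smaller-difference and larger-difference arrays it was -0.20 and -0.04.

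The mitochondrial peroxiredoxin gene prdx-3 (R07E5.2, chromosome III) read 10.72, 10.34 and 10.74 in wild type and 10.50, 10.75 and 10.31 in the mutant. The genotypes overlapped, and the difference was -0.08 ± 0.17 (SE; limma adjusted p = 0.956). It moved between -0.21 (wild-type replicate 2 omitted) and 0.02 (mutant replicate 3 omitted). It was 0.12 with the covariate, with a 95% interval from -0.13 to 0.37.

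Several of these genes separated the arrays by the 3' minus 5' difference. Values were higher on all 3 arrays with the smaller difference in 5 of the 11 probe sets: sod-2, prdx-2, prdx-3, 191226_s_at of gcs-1 and 188421_at of skn-1. Over all probe sets 14.2% did so. For prdx-2 they were 12.43 to 12.73 against 11.60 to 12.13, and for sod-2 10.12 to 10.34 against 9.50 to 9.89. Only sod-5 was lower on all 3 of these arrays, at 4.38 to 4.68 against 4.72 to 4.79, a pattern of 19% of all probe sets. The part that the 3' minus 5' axis has in these values was measured only through the covariate and the values within each set of arrays.

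**Figure D3:**
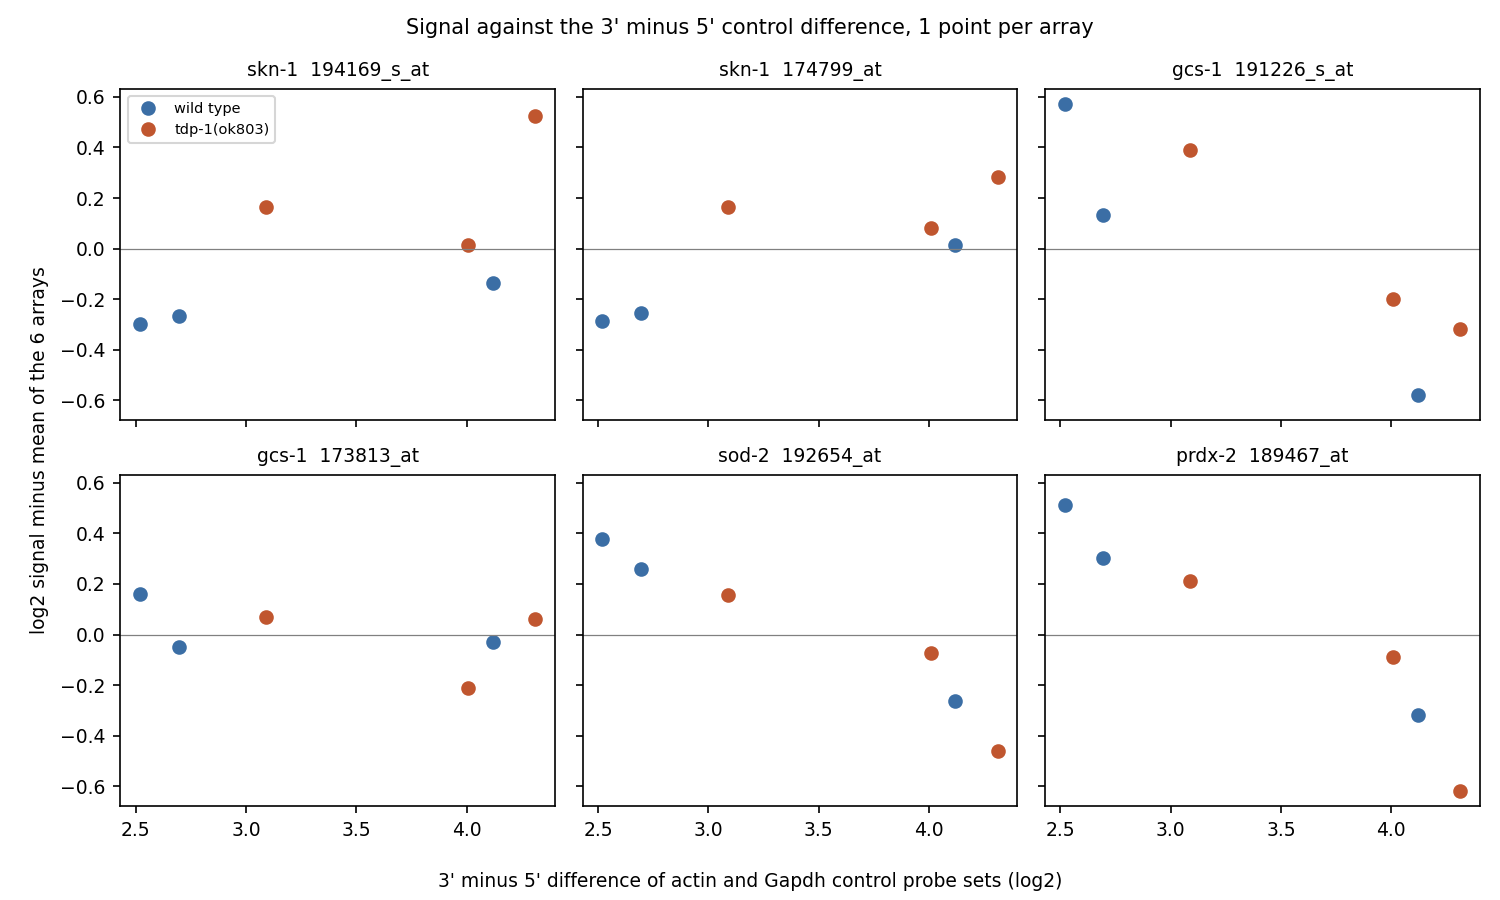
Log2 signal of 6 probe sets of skn-1, gcs-1, sod-2 and prdx-2, each minus its mean over the 6 arrays (vertical axis), against the 3' minus 5' control difference of each array in log2 units (horizontal axis), blue for wild type and orange for tdp-1(ok803). Points of sod-2, prdx-2 and 191226_s_at of gcs-1 are higher on the 3 arrays on the left, and those of 194169_s_at of skn-1 separate by genotype.

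Profiles of sod-2, prdx-2 and prdx-3 over the arrays were alike. Over the 6 arrays, Pearson r was 0.998 between sod-2 and prdx-2, 0.960 between sod-2 and prdx-3 and 0.953 between prdx-2 and prdx-3. The 6 points share the 3' minus 5' difference of their arrays, along which all 3 genes varied. The bright skn-1 probe sets ran together at 0.925 and against sod-2 and prdx-2, at -0.729 and -0.737 for 194169_s_at. The correlation of skn-1 194169_s_at with its target gcs-1 was 0.044 for 173813_at and -0.340 for 191226_s_at. The lowest of all pairs was -0.980, between 188421_at of skn-1 and sod-5, both below the array median.

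**Figure D4:**
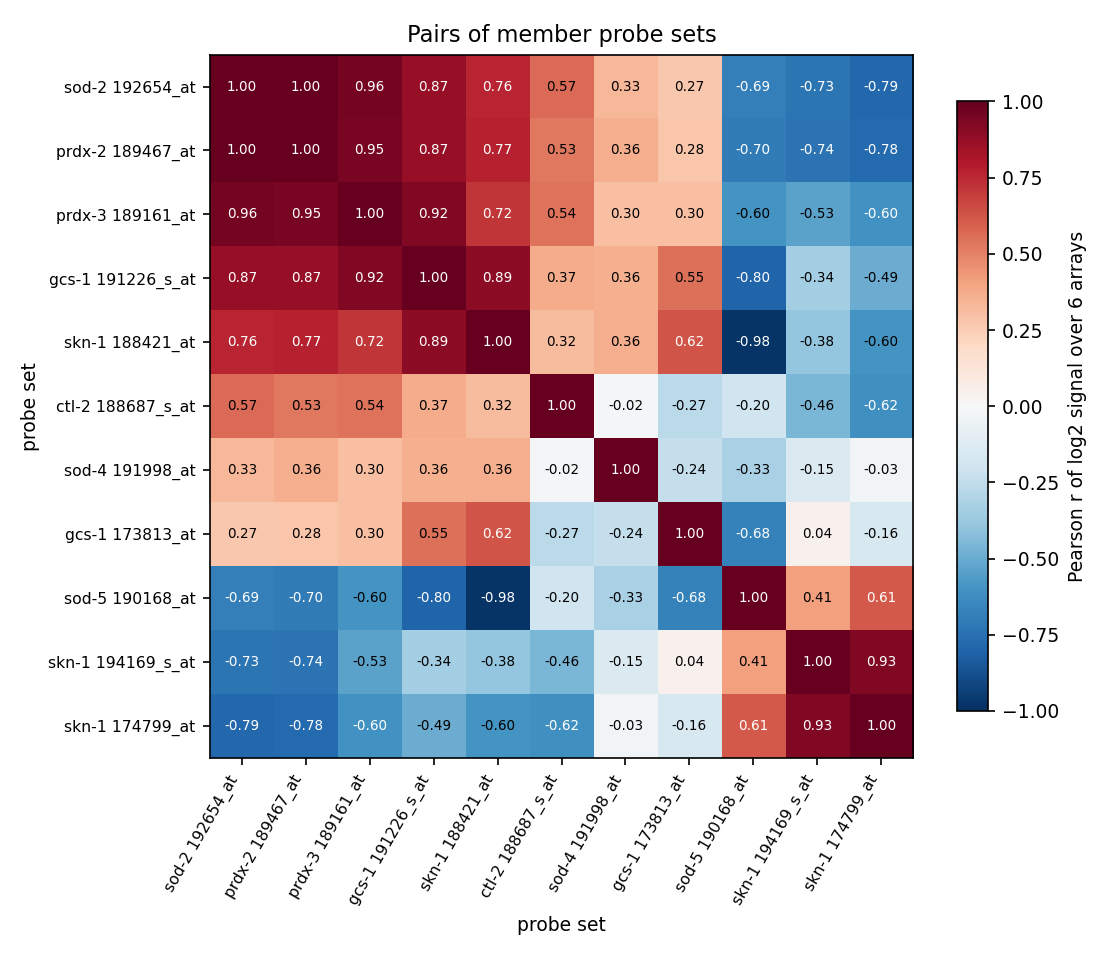
Pearson r of log2 signal over the 6 arrays for every pair of the 11 probe sets, which stand on both axes, from blue (-1) to red (1). The block of sod-2, prdx-2 and prdx-3 holds r of 0.953 to 0.998, and the skn-1 probe sets 174799_at and 194169_s_at stand apart from it with negative r.

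Among 8779 other genes with a mean above the median of all probe sets, the profiles closest to skn-1 over the 6 arrays were moc-3 (r = 0.994), pif-1 (r = 0.993) and utp-11 (r = 0.992). For moc-3 the wild-type values were 8.18, 8.32 and 8.19 and the mutant values 8.46, 8.51 and 8.77, so that mutant replicate 3 was highest there too. The differences of moc-3, pif-1 and utp-11 were 0.35, 0.32 and 0.44 (limma adjusted p = 0.619, 0.689 and 0.544), and 316 genes in all had an r over 0.9 with skn-1. For 173813_at of gcs-1 the closest were dylt-1, attf-6 and aakg-3, at r = 0.969, 0.969 and 0.968, and 14 genes exceeded 0.9. These values carry no test.

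Other genes of the pathway were taken from 5 lists naming 55 genes, of which 53 were measured, again with the brightest probe set per gene. None of the 53 passed in either direction (smallest limma adjusted p = 0.566). At an unadjusted p under 0.05 there were 3 of 53, against 6.97% of all probe sets. The genotypes were apart in 11 of them, 6 with the mutant above and 5 with it below, where 6.8% and 4.84% of all probe sets were. The median difference over the 53 was -0.001.

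Regulators of SKN-1 had a median difference of 0.05 over 9 measured genes, 6 of them positive. The kinase gene sgk-1, whose product phosphorylates SKN-1, read 7.61, 7.44 and 7.37 in wild type and 7.75, 7.66 and 7.74 in the mutant, a difference of 0.25. The related kinase gene akt-2 was at -0.29, with the mutant arrays wholly below. The F-box gene xrep-4 was at 0.24 with the mutant arrays just above, by 0.002, and the p38 kinase gene pmk-1 was at 0.19 with overlap. Adjusted p for these 4 lay between 0.760 and 0.864 in limma. With the 3' minus 5' covariate sgk-1 was at 0.24, akt-2 at -0.43, xrep-4 at 0.13 and pmk-1 at 0.16.

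Detoxification genes known as SKN-1 targets had a median difference of -0.15 over 11 measured genes, with 10 of 11 negative, where 49.5% of all probe sets were negative. With the 3' minus 5' covariate 7 of 11 were negative and the median was -0.07. The glutathione S-transferase gene gst-10 read 10.15, 10.02 and 10.78 in wild type and 9.67, 9.60 and 9.82 in the mutant. The mutant lay wholly below, and the difference was -0.62 ± 0.20 (SE; limma adjusted p = 0.566). The reporter gene gst-4 read 7.11, 7.15 and 8.71 in wild type and 7.47, 7.22 and 6.66 in the mutant, a difference of -0.54 in which wild-type replicate 3 was the 1 high array. Without that array it was -0.007, and with the covariate -0.20. The same array was highest for gst-5, gst-10, nit-1 and gst-12, and without it their differences were 0.05, -0.385, 0.035 and 0.165. Wild-type replicate 3 was also the highest array for sdz-8, at 6.10. The difference of sdz-8 ran from -0.19 to -0.13 when single arrays were left out. For the remaining genes of the list, ptps-1 among them, that array was not the highest. With all arrays gst-12 counted as negative at -0.001. The only gene positive with all arrays, ptps-1, was at 0.46 with overlapping groups, and sdz-8 was at -0.16 with the mutant wholly below. No gene of the list passed.

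Genes of glutathione synthesis and use had a median of 0.03 over 14 measured genes, 9 of them positive. The glutathione peroxidase gene gpx-3 was at -0.36 and its relatives gpx-8 and gpx-7 at 0.18 and 0.24. The signal of gpx-8 was below the array median on every array, and that of gpx-3 was above it on only 2. The glutathione synthetase gene gss-1, which acts after gcs-1, read 9.33, 9.46 and 9.28 in wild type and 9.54, 9.40 and 9.65 in the mutant, with overlapping groups. Thioredoxins and peroxiredoxin partners had a median of 0.08 over 11 genes, 7 positive. The thioredoxin genes trx-4 and trx-2, the latter mitochondrial, were at 0.29 and 0.23 with the mutant wholly above, txl-1 at 0.27 and the sestrin gene sesn-1 at -0.26. With the 3' minus 5' covariate gpx-3 was at -0.21, gpx-8 at 0.11, gpx-7 at 0.13 and gss-1 at 0.08. In the same fit trx-4 and trx-2 were each at 0.19, txl-1 at 0.06 and sesn-1 at -0.16.

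Among sources of oxidants, the dual oxidase gene bli-3 read 5.72, 5.41 and 6.0 in wild type and 5.34, 5.29 and 4.85 in the mutant. The mutant lay wholly below, by 0.07 at the closest, and the difference was -0.55 ± 0.19 (SE; limma adjusted p = 0.607). The signal of bli-3 was above the array median on only 2 arrays. The tetraspanin gene tsp-15, whose product works with BLI-3 in cross-linking the cuticle, was also wholly below, by 0.04, at -0.48 (limma adjusted p = 0.655). With the 3' minus 5' covariate the differences were -0.35 for bli-3 and -0.29 for tsp-15. Hypodermal and cuticle markers had mean levels of 8.07 to 9.04 in wild type and 8.11 to 8.56 in the mutant, and their part in these values was not tested. Of the mitochondrial genes, mev-1, a subunit of succinate dehydrogenase, was at -0.38 with overlap and at -0.12 with the covariate. The gene nuo-6, of respiratory complex I, was at 0.14, and at 0.15 with the covariate. Mutant arrays lay wholly above for nuo-6, by 0.02 at the closest. The list median was -0.03 over 8 genes, 5 of them negative.

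**Figure D5:**
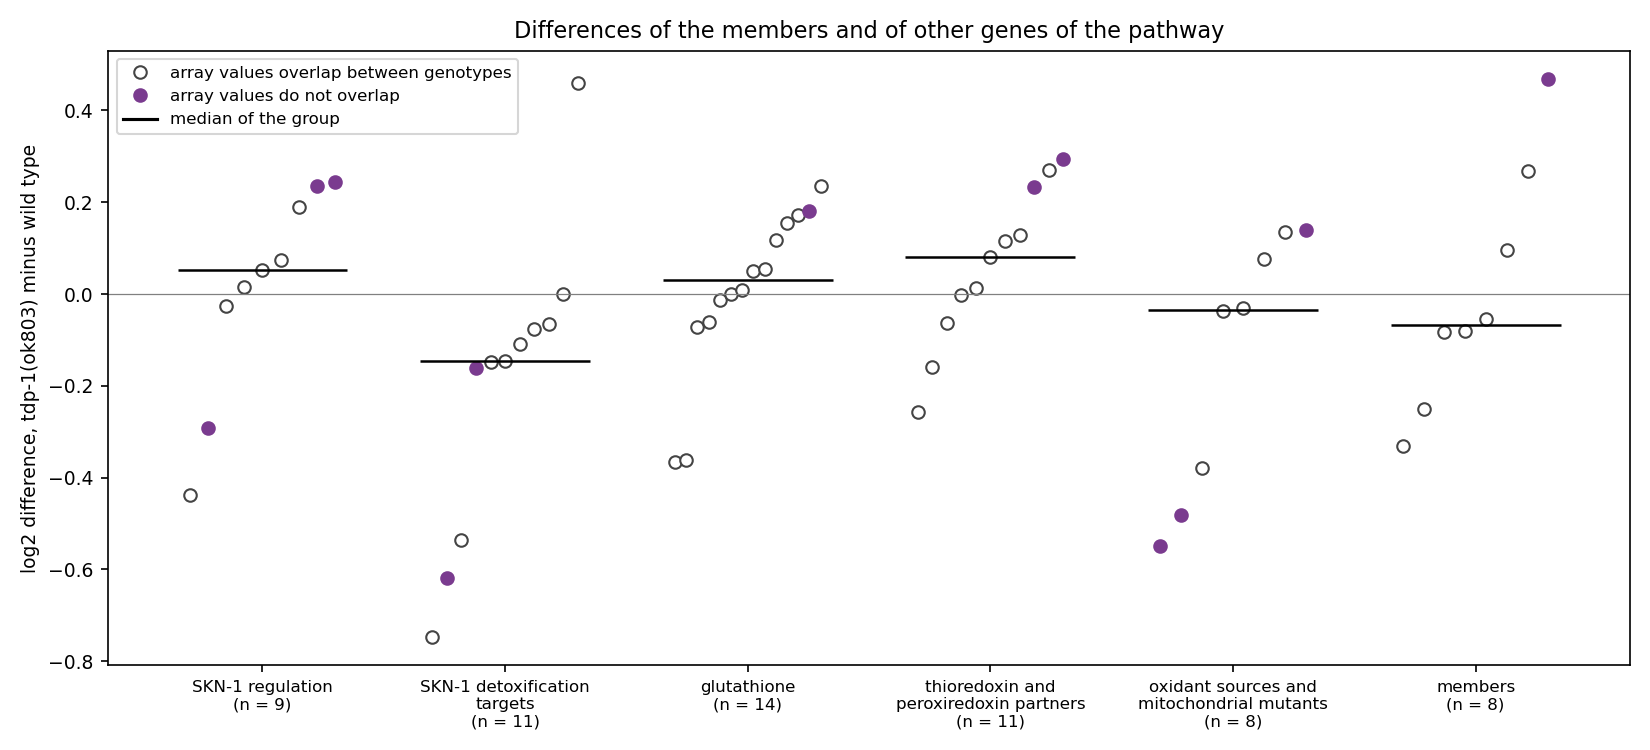
Log2 difference, tdp-1(ok803) minus wild type (vertical axis), for each gene of 5 pathway lists and for the 8 measured antioxidant genes, sorted within each group (horizontal axis). Filled points have array values that do not overlap between genotypes, and black lines are group medians, the lowest of them -0.15 for SKN-1 detoxification targets.

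One alternative fit called 4 of the 8 genes. With array weights, limma gave skn-1 at 0.34, sod-4 at 0.87, sod-2 at -0.33 and prdx-2 at -0.39 (limma adjusted p = 0.0213, 0.00975, 0.0369 and 0.0386). The weights placed 90.8% of the wild-type weight on replicate 1 and 81.6% of the mutant weight on replicate 1, which lie on opposite sides of the 3' minus 5' axis. That fit called 6291 of all 22548 probe sets, or 27.9%, against 0.0577% with equal weights.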

How the data were processed

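Total RNA from mixed-stage worms, extracted with TRIzol and RNeasy columns, was labelled with biotin for Affymetrix arrays, per the labels' protocols. The deposited values are log2 signals, 1 per probe set and array. The submitters' processing notes name RMA and Partek, without versions. The log2 scale was inferred from the range of the values. Array medians ran from 5.41 to 5.52. Each genotype has 3 samples, biological replicates per the design text. The number of arrays limits the precision, and signal over background was not assessed.

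Control probe sets (77) were set aside. Of 22548 probe sets, 20766 carried 1 gene symbol, 887 several and 895 none. The WBcel235 gene table gave current symbols by gene ID and lacked 65 of them. Probe sets with several symbols were named for no gene. Differences came from limma 3.58.1 in R 4.3.3 (lmFit, eBayes, genotype alone), tested on simulated data first. Intervals are 95% and unadjusted. Exact permutation used scipy 1.17.1, figures matplotlib 3.10.9.

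The genes, lists and markers were chosen with earlier results of these data known. All 10 antioxidant genes are named, and of each pathway list the 4 genes with the smallest p. The SKN-1 targets gst-5, nit-1 and gst-12 were added after their values were seen. The genes between tdp-1 and gcs-1 and the catalase control probe sets were chosen after their values were seen. Alternatives were other moderation, normalization, filter, array weights, replicate block, a 3' minus 5' covariate, single arrays left out and the mean of a gene's probe sets. Fits within the arrays of smaller or larger 3' minus 5' difference were chosen after seeing the data.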

Additional observations from a re-analysis of the deposited data

How the results depend on the processing

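With genotype alone, 0 of the 8 antioxidant genes changed, and the count stayed 0 under every alternative except array weights, where it was 4: skn-1 (0.34), sod-4 (0.87), sod-2 (-0.33) and prdx-2 (-0.39). No gene passed in the fits of only 3 arrays, which left 1 array in one genotype. Over 17 alternatives the difference of skn-1 ran from 0.24 to 0.58 and that of sod-4 from 0.02 to 0.87, all positive. Signs turned in 1 alternative each for prdx-2 and sod-2, 2 for sod-5, 3 for ctl-2 and 4 each for gcs-1 and prdx-3, without a call. Over all probe sets the count of 13 moved to 0 in an unmoderated linear model, 7 with equal array medians, 6291 with array weights, 25 with the 3' minus 5' covariate and 6 at an adjusted p under 0.01. It ran from 4 to 97 when single arrays were left out. With the replicate number as a block it was 5, and skn-1 differed by 0.47 (limma adjusted p = 1). Deviations of same-numbered arrays from their genotype means correlated at 0.05, -0.614 and -0.46. These values cannot decide whether the numbers pair the samples, because the arrays of each genotype also differ in the 3' minus 5' difference. The causes of these moves were not tested. Dim signals limit 188421_at of skn-1, sod-5 and gpx-8, and gpx-3 and bli-3 were above the array median on only 2 arrays each.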
